A study of Mus musculus with 10 samples.

Results

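The Ms4a genes encode small proteins that span the cell membrane several times and lie side by side in a single gene cluster. Ms4a1 encodes CD20, a surface protein of B cells, and Ms4a2 encodes the beta chain of the high-affinity IgE receptor of mast cells, whereas several Ms4a4, Ms4a6 and Ms4a7 genes are known from macrophages and microglia. In humans, variants near MS4A4A and MS4A6A have been linked to the risk of Alzheimer's disease and to the amount of soluble TREM2. The 9 genes described here, Ms4a4a, Ms4a4b, Ms4a4c, Ms4a4d, Ms4a6b, Ms4a6c, Ms4a6d, Ms4a7 and Ms4a14, were chosen as a gene family, by gene symbol, with earlier results of these arrays known. They were 9 of 18976 genes that had a probe set row of their own, and none of the 9 shared a row with another gene.

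The cells were primary microglia of newborn wildtype C57BL6 mice, shaken off mixed glial cultures after 14 days. In the first group 5 arrays were of microglia given recombinant human TGFb1 at 5 ng/ml for 24 h, and in the control group 5 arrays were of microglia kept for 24 h without it, all in serum-free medium. The labels do not say if each array had a culture of its own. The only measurement used was the authors' median expression per probe set, a linear intensity with no error and no number of arrays. The table also has 10 columns for single arrays, but their names could be tied to no sample and no group. For this reason, and because the authors' own comparison of the groups was not used, TGFb1-treated and control microglia were not compared here, and no direction of change is given for any member. The header does not state which arrays the median covers, so the levels below are assigned to neither group.

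The levels of the 9 genes reached from near the bottom to near the top of all genes. Ms4a7, Ms4a6d and Ms4a6c were among the most abundant signals, Ms4a14 and Ms4a6b were high, Ms4a4a and Ms4a4c were intermediate, and Ms4a4b and Ms4a4d lay near the low end. Over all 18976 genes, the lower quartile was 6.19, the median 15.78 and the upper quartile 73.45 intensity units. By construction, 50% of genes lie above the median and 25% above the upper quartile, and 7 and 5 of the 9 members did so. Levels of different probe sets also depend on how well each probe binds, so levels are compared between genes only as an order and not as a fold. No background level was used, and whether the lowest members were detected was not tested.

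Ms4a7, which is widely used as a marker of macrophages at the borders of the brain (probe set 10466200), had a median expression of 2052, above 99.4% of genes. Ms4a6d, a gene expressed in macrophages (probe set 10466210), followed at 1586, above 99.1% of genes. In all, 308 of the 18976 genes, or 1.62%, exceeded an intensity of 1000, and Ms4a7 and Ms4a6d were the members among them.

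Ms4a6c (probe set 10461614) had a median expression of 639.6, above 97.1% of genes. Ms4a14, whose coding sequence is far longer than that of the other members (probe set 10466190), stood at 298.1, above 93.1% of genes. Ms4a6b (probe set 10461622) stood at 237.5, above 91.2% of genes. All 3 Ms4a6 genes thus lay above the upper quartile of all genes.

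The 4 Ms4a4 genes were lower, and none of them reached the upper quartile. Ms4a4a, a macrophage surface protein that associates with the beta-glucan receptor dectin-1 (probe set 10461587), had a median expression of 57.72, above 70.9% of genes. Ms4a4c (probe set 10461594) stood at 22.42, above 55.8% of genes. Ms4a4b (probe set 10461605), which is known from T cells in mice, was at 3.664, above 8.68% of genes, and Ms4a4d (probe set 10461629) was at 2.75, above 2.88% of genes.

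**Figure D1:**
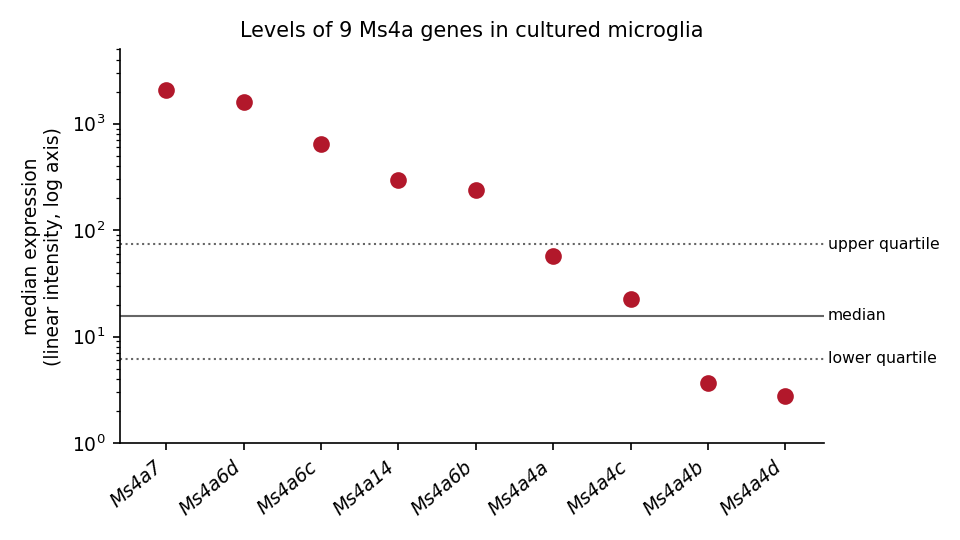
Median expression of the 9 Ms4a genes as given by the authors (linear intensity on a log axis), 1 point per gene, in falling order from Ms4a7 at 2052 to Ms4a4d at 2.75. Horizontal lines mark the quartiles and the median of all genes (6.19, 15.78 and 73.45), and 5 points lie above the upper quartile. The points carry no error.

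By subfamily, the Ms4a6 genes ranged between 237.5 and 1586 with a median of 639.6, and the Ms4a4 genes between 2.75 and 57.72 with a median of 13.04.

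In the RefSeq annotation of mouse genome build GRCm38.p6, 21 Ms4a genes lie on chromosome 19, and the 9 members are neighbours within them, interrupted only by the gene model Gm8369. Another 10 Ms4a genes lie on the side of the cluster next to Zp1, and Ms4a2 and Ms4a3 on the side next to the Oosp genes. The order of the members was Ms4a14, Ms4a7, Ms4a4a, Ms4a4c, Ms4a4b, Ms4a6c, Ms4a6b, Ms4a4d and Ms4a6d. Of these, 6 are transcribed from the plus strand, and Ms4a14, Ms4a7 and Ms4a6d from the minus strand. Low and high members can be neighbours in this run: Ms4a4b, at 3.664, lies next to Ms4a6c, at 639.6, and Ms4a4d, at 2.75, lies between Ms4a6b, at 237.5, and Ms4a6d, at 1586.

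Outside this run, the Ms4a genes were low. The members were chosen with earlier results of these arrays known, so their contrast with the other Ms4a genes is a description and may restate that choice. The members had a median level of 237.5, against 5.031 for the other Ms4a genes, of which 11 of 12 had a row of their own with levels between 1.786 and 21.86. The exception above the median of all genes was Ms4a15, at 21.86. Ms4a8a followed at 12.65, Ms4a13 at 9.244 and Ms4a10 at 8.198. Ms4a1, the CD20 gene of B cells, was at 2.682, Ms4a2, of the mast cell IgE receptor, at 3.679, and Ms4a3, known from granulocyte and monocyte progenitors, at 5.232. Ms4a12 was at 5.031, Ms4a20 at 3.26, Ms4a5 at 2.913 and Ms4a19 at 1.786, all below the lower quartile of all genes. The bordering genes were low as well: Zp1, of the egg coat, was at 6.466, and Oosp1, Oosp2 and Oosp3, which encode oocyte secreted proteins, were at 3.295, 3.051 and 2.871. Ms4a18, Gm8369, Ptgdr2 and Ccdc86 had no row of their own and were not analysed here.

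**Figure D2:**
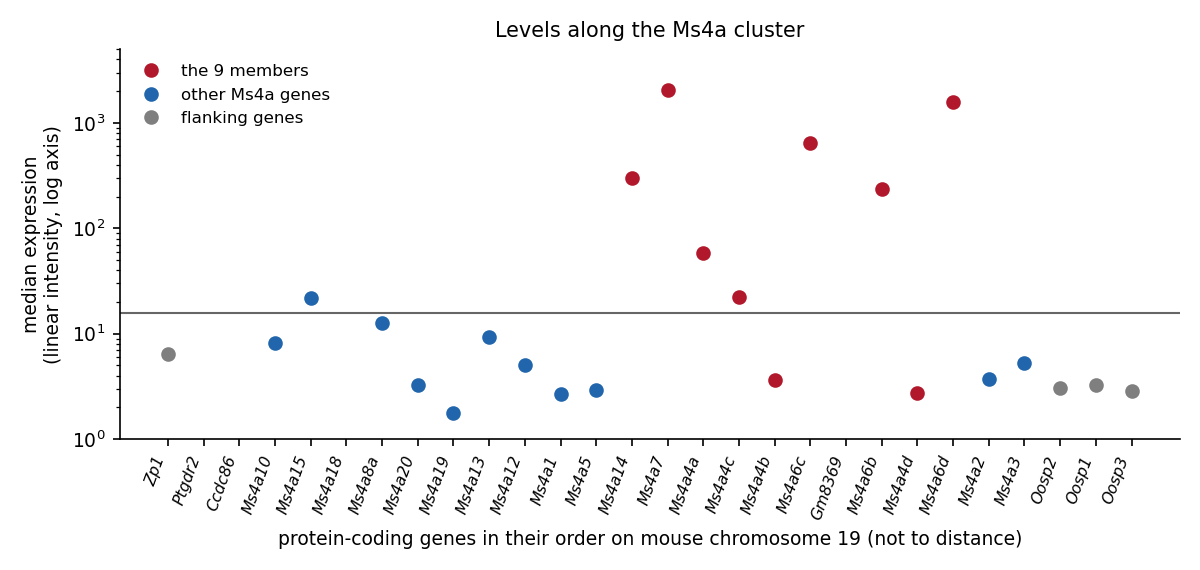
Median expression (linear intensity, log axis) of the genes of the Ms4a cluster and 3 genes on either side, in their order on mouse chromosome 19 and not to distance, with the median of all genes, 15.78, as a line. Red points are the 9 members, blue points other Ms4a genes and grey points bordering genes, and a name without a point had no row of its own. The points above 21.86 all belong to the run between Ms4a14 and Ms4a6d.

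The markers of microglia were checked beside the family. Of 12 microglia markers, 11 lay above the median of all genes and 9 above the upper quartile. The complement genes C1qb and C1qa stood at 4508 and 1088, the growth factor receptor gene Csf1r at 1721 and the chemokine receptor gene Cx3cr1 at 819.2. Ms4a7, at 2052, and Ms4a6d, at 1586, thus stood near Csf1r. Fcrls stood at 1136, Itgam at 787.7 and Olfml3 at 553.3. Tmem119 and P2ry12, markers of microglia of the intact brain, were lower, at 94.06 and 40.43, as was Aif1 at 72.21, and Siglech was at 6.476, below the median of all genes.

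Most markers of other cells gave lower values. Of 10 lymphocyte markers, 2 lay above the median of all genes, Cd4 at 34.44 and Cd79b at 27.73, and the list ranged down to Cd3g at 3.985. Of 7 monocyte markers with their own row, only Fn1 lay above the median, at 477.6, whereas the chemokine receptor gene Ccr2 was at 3.228. Of 6 astrocyte markers, 2 lay above the median, Aldoc at 48.93 and Aldh1l1 at 28.57. Among 6 oligodendrocyte lineage markers 1 did, Mbp at 56.72. Among 6 fibroblast and endothelial markers 2 did, Col3a1 at 18.94 and Col1a1 at 18.78. Mbp and Aldoc thus stood above the microglia marker P2ry12, at 40.43. Neuronal markers reached at most 7.094 for Snap25.

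Since Ms4a7 is a border macrophage marker, genes of border macrophages and of alternative activation were set beside it. Of 15 such genes, 8 lay above the median of all genes, and their own median was 20.19. The scavenger receptor genes Stab1 and Msr1 were at 1361 and 858.3, Siglec1 at 602.3, Folr2 at 361.4 and Cd38 at 203. The mannose receptor gene Mrc1 stood at 155.7, the chemokine gene Pf4 at 96.46 and Cbr2 at 20.19. Other border macrophage genes lay below the median of all genes, with F13a1 at 11.15, Lyve1 at 10.58, Clec10a at 6.203 and Cd163 at 5.843. The alternative activation genes Arg1, Retnla and Chil3 lay below it too, at 5.219, 4.268 and 2.537. Whether border macrophages in the cultures had a part in the level of Ms4a7 was not tested.

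The measured signalling genes around the family were high. Trem2, a lipid receptor of microglia, stood at 1956, its adaptor Tyrobp at 3154 and the Fc receptor gamma chain gene Fcer1g at 3504. All 7 measured genes of the list of Trem2 and dectin-1 signalling lay above the upper quartile. Clec7a, the gene of dectin-1 itself, had no row, so its level is not known here. Tmem176b and Tmem176a, whose proteins resemble the Ms4a family, had median expressions of 705.7 and 169.2. Of 10 genes of the type I interferon response, all 10 lay above the median of all genes, led by Ifit3 at 387.6. The text of the study names Ms4a4a, Ms4a7 and Ms4a14, and no other member, among the genes raised without Tgfbr2. It gives them as examples, so whether other members were also raised there is not known here. Of 14 other genes with a row that the study named as raised, 11 lay above the median. They were led by the secreted protein gene Wfdc17 at 4555 and the oxidase subunit gene Cybb at 3863. The rest lay below the median of all genes, H2-Ab1 at 8.1, H2-Aa at 5.552 and Tnfsf8 at 4.648. Those genes were picked by the study in microglia sorted from adult mice, not in these cultures, and their levels here carry no direction of change.

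**Figure D3:**
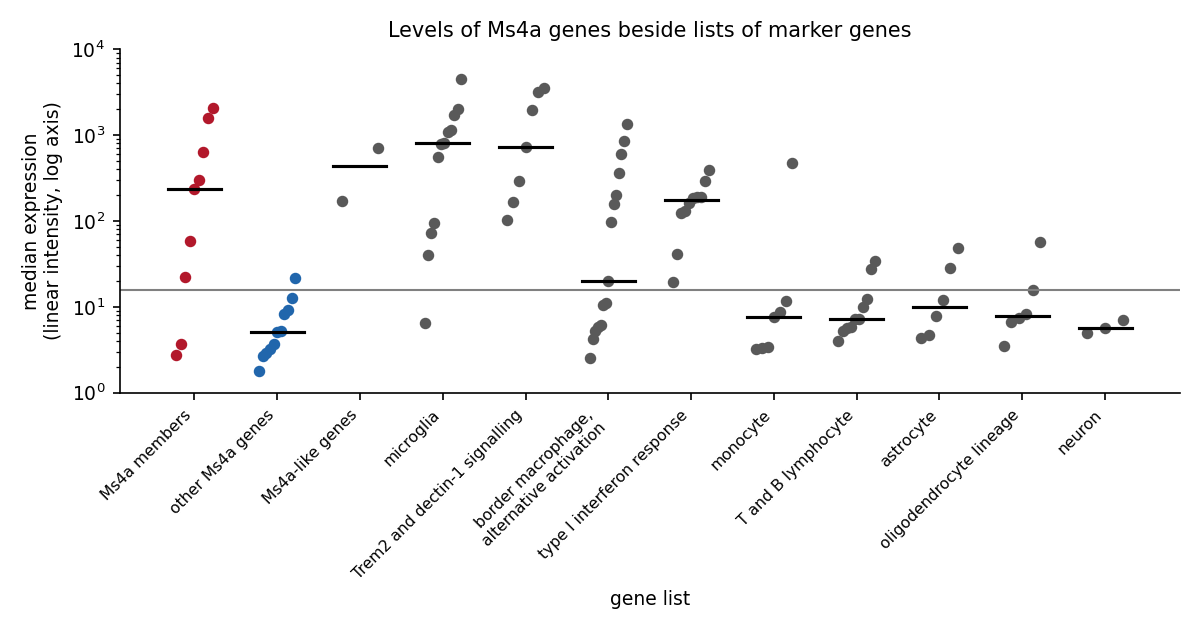
Median expression (linear intensity, log axis) of the 9 Ms4a members (red), the other Ms4a genes (blue) and the genes of 10 further lists (grey), 1 point per gene, with black bars for the median of each list and a grey line for the median of all genes, 15.78. The members spread between 2.75 and 2052 around a median of 237.5, and the other Ms4a genes around 5.031.

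Near-identical genes can share probes, so the members' transcripts were compared. In GENCODE M21 the coding sequences of 8 members are between 651 bases (Ms4a6c) and 801 bases (Ms4a7) long, and that of Ms4a14 has 3696 bases. Over the 28 pairs without Ms4a14, identity of the aligned coding sequence ranged between 59.8% and 91.7%. The closest pairs were Ms4a4b and Ms4a4c at 91.7%, Ms4a4c and Ms4a4d at 87.9%, and Ms4a6b and Ms4a6c at 86.4%. The 3 Ms4a6 genes shared at least 79.6% with each other, and pairs across subfamilies at most 68.9%. Within the Ms4a6 group all 3 genes lay above the upper quartile, and within the close group of Ms4a4b, Ms4a4c and Ms4a4d, Ms4a4b and Ms4a4d lay below the lower quartile and Ms4a4c above the median of all genes.

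Array probes of this kind are 25 bases long, so stretches of 25 bases that occur in transcripts of more than one gene were counted. Ms4a6b and Ms4a6c shared 354 such stretches, Ms4a4b and Ms4a4c 275, Ms4a6b and Ms4a6d 107, Ms4a4c and Ms4a4d 84, Ms4a6c and Ms4a6d 35, Ms4a4b and Ms4a4d 25, and Ms4a4c and Ms4a7 only 4. By gene, 27% of the stretches of Ms4a6c and 22.5% of those of Ms4a4c also occurred in another gene, the highest shares of the 9. The share was 11.3% for Ms4a6d, 9.84% for Ms4a6b, 7.72% for Ms4a4b, 6.25% for Ms4a4d and 1.75% for Ms4a7, and Ms4a14 and Ms4a4a had no shared stretch. The probes themselves were not analysed here, and whether any of them lay in a shared stretch was not tested. Of the 31 transcript accessions the table lists for the 9 probe sets, 0 were listed for another row. The single accession listed for Ms4a14 was not found in GENCODE M21. That listed for Ms4a4a was not among the RefSeq transcripts of Ms4a4a, and it was not looked up in other genes. The identity of these rows thus rests on the symbol in the table.

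**Figure D4:**
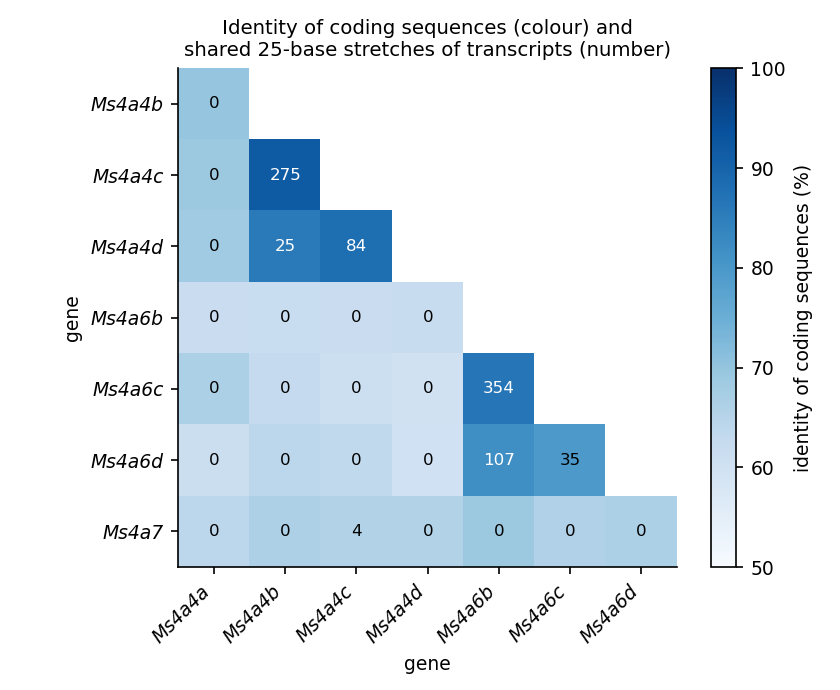
Identity of the coding sequences of 8 members (colour, in percent of aligned bases) and the number of 25-base stretches their transcripts share (printed), 1 square per pair. Ms4a14 is left out because at most 21.7% of its coding sequence aligned to another member. The dark squares are the Ms4a4b, Ms4a4c and Ms4a4d group and the Ms4a6b, Ms4a6c and Ms4a6d group, with up to 91.7% identity and up to 354 shared stretches.

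RefSeq promoter windows of GRCm38.p6 were given for 8 of the members, 250 bases before the transcription start, and Ms4a7 had a window for each of 2 starts. Ms4a6d had no window, so nothing below covers its promoter. They are shown for Ms4a6b and Ms4a6c, which have the most alike windows, for Ms4a4b and Ms4a4c, which are the next most alike, and for Ms4a7, the highest member. Capitals mark matches to an interferon regulatory factor (IRF) type motif, GAAANNGAA, or to the TATA motif, TATAAA, on either strand.
Ms4a6b, plus strand, chr19:11518309-11518558: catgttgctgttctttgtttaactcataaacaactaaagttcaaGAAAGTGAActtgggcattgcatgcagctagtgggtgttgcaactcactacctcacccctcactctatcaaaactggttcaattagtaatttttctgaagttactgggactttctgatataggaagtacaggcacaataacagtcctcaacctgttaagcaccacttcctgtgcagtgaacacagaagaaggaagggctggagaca
Ms4a6c, plus strand, chr19:11469118-11469367: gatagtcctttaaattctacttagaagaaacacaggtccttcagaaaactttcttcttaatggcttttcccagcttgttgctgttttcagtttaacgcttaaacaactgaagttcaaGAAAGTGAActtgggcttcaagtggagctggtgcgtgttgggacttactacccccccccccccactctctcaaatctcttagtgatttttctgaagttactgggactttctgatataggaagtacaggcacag
Ms4a4b, plus strand, chr19:11443308-11443557: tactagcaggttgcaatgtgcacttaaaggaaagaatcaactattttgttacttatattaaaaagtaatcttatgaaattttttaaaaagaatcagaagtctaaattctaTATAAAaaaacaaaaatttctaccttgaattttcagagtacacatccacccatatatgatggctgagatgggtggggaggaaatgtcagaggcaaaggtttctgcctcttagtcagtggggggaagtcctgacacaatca
Ms4a4c, plus strand, chr19:11407411-11407660: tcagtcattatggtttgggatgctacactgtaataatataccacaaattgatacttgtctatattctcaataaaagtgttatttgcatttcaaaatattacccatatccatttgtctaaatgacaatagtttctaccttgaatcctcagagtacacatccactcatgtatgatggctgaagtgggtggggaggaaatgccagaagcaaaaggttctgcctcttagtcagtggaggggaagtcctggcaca
Ms4a7, minus strand, chr19:11336147-11336396: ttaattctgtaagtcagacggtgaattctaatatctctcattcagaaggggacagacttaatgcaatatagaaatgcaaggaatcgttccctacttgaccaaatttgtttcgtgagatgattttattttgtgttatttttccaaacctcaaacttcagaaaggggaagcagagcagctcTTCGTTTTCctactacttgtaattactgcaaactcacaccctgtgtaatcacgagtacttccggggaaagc

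The windows of Ms4a6b and Ms4a6c shared an unbroken stretch of 48 bases and were 85.1% identical over 175 aligned bases. Those of Ms4a4b and Ms4a4c shared an unbroken stretch of 20 bases and were 80.1% identical over 231 aligned bases. In every other pair of windows the longest shared stretch had at most 9 bases.

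An IRF-type match stood at base -206 from the start in Ms4a6b and at -133 in Ms4a6c, within alike sequence, and at -71 in the window of Ms4a7 shown and at -148 in its other window. These were 4 of the 9 windows, of 3 members, whereas 7.13% of all 32851 promoter windows of this length held a match. Since Ms4a6b and Ms4a6c share sequence and both Ms4a7 windows belong to 1 gene, these are not 4 separate cases. The TATA motif occurred in Ms4a4b at -140 and at 2 places in Ms4a14, and in 12.4% of all windows. An AP-1 motif, TGANTCA, occurred in the second window of Ms4a7 at -81 and in Ms4a14 at -32, and in 6.75% of all windows. The short Smad motif CAGAC occurred in the windows of Ms4a4a, Ms4a4d, Ms4a7 and Ms4a14, and in 42.2% of all windows. The PU.1-type motif GAGGAAG and the STAT motif TTCNNNGAA matched in none of the 9 windows, and in 10.6% and 7.02% of all windows. The shorter GAGGAA, which stands for example in the windows of Ms4a4b and Ms4a4c shown, was not counted. The motifs were searched on both strands, some of their matches may overlap, and a match does not show a bound site.

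The annotation carried by the table names tissues in which transcripts of each gene had been catalogued. Spleen was named for 7 of the 9 members, bone marrow for 7, thymus for 6 and brain for 2, which were Ms4a7 and Ms4a6b. The general term for proteins integral to the membrane was given to 4 of the 9. Ms4a4b, not among them, had the narrower term for proteins integral to the plasma membrane. These entries come from public catalogues and not from the arrays. How often they are given to genes in general was not counted, so they mark no trait of the family.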

How the data were processed

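Total RNA of primary mouse microglia (10 arrays, 5 with TGFb1 and 5 controls) was extracted with TRIzol, with RNA integrity numbers between 8.6 and 10 and a mean of 9.45. For each array, 500 ng were labelled for Affymetrix whole transcript arrays. The submitters' processing notes name RMA. Its version, the array model and the genome build were not given in the sources used here.

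The values used are the median expression per probe set as deposited by the authors, a linear intensity whose header does not state over which arrays it was taken. A further 10 columns of values per array matched no sample label and were not used. The authors' own comparison (effect sizes, test p-values and false discovery rates, 5 columns) was not used either. The limma fit planned for the groups could therefore not be made, and arrays have no depth beyond their number.

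Rows with 1 gene symbol were kept, and the row with the highest median expression led each symbol, which gave 18976 genes. A gene's rank is the percent of these with a lower value, which was tested on simulated data. Named were all members, measured Ms4a and Ms4a-like genes, microglia markers, the highest 2 genes of each other list and the 3 genes on either side of the cluster. Some further genes, such as Ccr2, Cd3g, Trem2, Mrc1, Pf4, F13a1, Lyve1, Clec10a, Cd163 and Chil3, were named after their values were seen. The same holds for Siglec1, Folr2, Cd38, Cbr2, Arg1, Retnla, H2-Ab1, H2-Aa and Tnfsf8. Some genes that this rule took are counted in their lists but not reported here by name. The members and lists were chosen with earlier results of these data known. Transcripts came from GENCODE M21, and promoters and gene order from RefSeq (GRCm38.p6). Sequences were aligned globally with Biopython 1.88 under Python 3.11.15, with pandas 2.3.3 and matplotlib 3.10.9. Alternatives mostly changed the set of rows used as the reference for ranks.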

Additional observations from a re-analysis of the deposited data

How the results depend on the processing

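The count of members above the median of all genes was 7 when levels were ranked among all 28361 rows or among the 21041 rows with 1 symbol. It was also 7 with the lowest row leading each symbol. That setting left the members' levels as they were and could only lower the reference, so the count could not fall under it. Matching older symbols, or keeping only rows of the main probe category, left the members' rows and the reference of 18976 genes unchanged. These settings could therefore not move the count or any percentile. The main-category setting, and the upper quartile in place of the median, which 5 members exceeded, were chosen after seeing the data. Of 45 recomputed percentiles of single members, 16 fell outside the 95% Wilson interval of the value given, 9 of them upward. The 45 include those of the older-symbol and main-category settings, which could not move. The largest move was 4.45 points, for Ms4a4c among all rows. A rank among all genes is not a sample, so the interval is only a yardstick for the moves and measures no uncertainty of a level. No paired analysis was possible because the columns per array match no sample and the pooled median comes from no test. For the same reason the planned limma fits without the block, without each replicate in turn, with a filter on low values, with the mean over rows, with centred effects, with a trended prior and with a pseudocount were not run. The precision of each level is unknown, since a pooled value has no spread.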
